A study of Mus musculus with 14 samples.

Results

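The nuclear genes of respiratory complexes II to V and of cytochrome c were followed in 3T3-L1 cells, a mouse preadipocyte line that turns into fat cells under hormones. Genes were taken by symbol from the array annotation: Sdha to Sdhd for complex II, Cyc1 and every Uqcr gene for complex III, Cycs for cytochrome c, every Cox4 to Cox8 gene for complex IV and every Atp5 gene for complex V. This gave 48 of the 18193 genes that had a probe set of their own, with 4 in complex II, 9 in complex III, 1 for cytochrome c, 17 in complex IV and 17 in complex V. Where a gene had several probe sets, the one with the highest mean over all arrays was used. Of the 48 genes, 41 reached an intensity of 50 on 3 or more arrays and entered the test of 8682 genes. The other 7 (Cox4i2, Cox6a2, Cox6b2, Cox7a1, Cox7b2, Cox8b and Cox8c) are all tissue forms of complex IV subunits and are described by their values.

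One line of 3T3-L1 cells had been transduced with a retrovirus for V5-tagged SETD5 under a weak viral promoter, and the other line with the same virus left empty. Both lines were 2 days past confluence at 0 h, received insulin, dexamethasone and isobutylmethylxanthine for 48 h, and then insulin alone. RNA was taken at 0, 12, 24, 36, 48, 96 and 192 h, with 1 array for each virus and hour. No hour had a replicate, so the hours stand in for replicates, and SETD5 cannot be told apart from any other difference between the 2 lines. The Setd5 probe set had intensities of 239.3 to 350.1 in SETD5 cells and 249.4 to 377.5 in empty virus cells, and whether it reads the viral transcript is not known here. Levels are of RNA from whole cultures, in which fewer fat cells and less RNA per fat cell cannot be told apart.

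The complexes sit in the inner mitochondrial membrane. Complex II, succinate dehydrogenase, passes electrons from succinate to ubiquinone, complex III moves them to cytochrome c, and complex IV, cytochrome c oxidase, hands them to oxygen. Complexes III and IV pump protons, and complex V, the ATP synthase, lets them flow back to make ATP. All complex II subunits are nuclear, whereas complexes III, IV and V also hold subunits made from mitochondrial DNA, which were not analysed here. Fat cell formation is known for a build-up of mitochondria. Several complex IV subunits exist in forms for different tissues, and the heart and muscle forms Cox6a2, Cox7a1 and Cox8b stand in for the widely made Cox6a1, Cox7a2 and Cox8a. Cox7a1 and Cox8b are also known from brown fat.

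Genes of these complexes are known for binding sites of NRF1, a transcription factor of nuclear genes for mitochondria, close to their starts. RefSeq promoter windows on build GRCm38.p6 were matched for 36 of the 48 genes (39 windows), and the 250 bases before each start were searched on both strands with 9 short letter strings. The NRF1 letters GCGCANGCG stood in 9 of the 39 windows (23.1%), against 5.16% of all 32851 windows. The letters of the ETS family of GABP, CCGGAAGT, stood in 3 windows (7.69%, against 2.88% of all) and those of the ERR receptors, AAGGTCA, in 2 (5.13%, against 4.08%). A shorter ETS string, CGGAAGT, stood in 6 windows (15.4%, against 4.92%), and CCAAT in 21 (53.8%, against 33.8%). The SP1 letters GGGGCGGGG stood in 5 (12.8%, against 10.4%) and the E-box letters CACGTG in 4 (10.3%, against 6.02%). A longer ERR string, TCAAGGTCA, and the YY1 letters AAGATGGC stood in 1 each (2.56%, against 0.387% and 1.56%). The 150 bases before the start are shown for Cycs (chr6:50566570-50566719), Sdha (chr13:74350241-74350390), Sdhd (chr9:50603850-50603999), Uqcrfs1 (chr13:30545317-30545466) and Cox8b (chr7:140900447-140900596), all on the minus strand, because Cycs and Uqcrfs1 had the lowest values at 96 and 192 h among the tested genes, Sdha and Sdhd hold the NRF1 letters and Cox8b is the tissue form that appeared. Capitals mark the NRF1 letters or their reverse complement.
Cycs: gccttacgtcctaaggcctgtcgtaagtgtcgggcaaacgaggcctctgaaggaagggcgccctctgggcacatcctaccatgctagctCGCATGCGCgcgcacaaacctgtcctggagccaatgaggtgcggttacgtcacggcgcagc
Sdha: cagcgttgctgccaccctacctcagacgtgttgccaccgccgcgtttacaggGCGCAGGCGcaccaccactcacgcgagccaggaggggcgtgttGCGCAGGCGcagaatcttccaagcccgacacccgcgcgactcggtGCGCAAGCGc
Sdhd: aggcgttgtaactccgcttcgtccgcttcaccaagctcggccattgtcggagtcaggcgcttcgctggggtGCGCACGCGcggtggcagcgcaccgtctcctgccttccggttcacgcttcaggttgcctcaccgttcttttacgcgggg
Uqcrfs1: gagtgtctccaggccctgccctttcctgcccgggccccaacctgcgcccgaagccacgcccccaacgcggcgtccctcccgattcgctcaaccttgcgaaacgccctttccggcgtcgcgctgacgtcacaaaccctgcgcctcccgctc
Cox8b: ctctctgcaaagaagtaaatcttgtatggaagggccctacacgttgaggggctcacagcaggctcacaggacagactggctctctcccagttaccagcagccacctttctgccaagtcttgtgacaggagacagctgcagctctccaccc
The NRF1 letters stood once in the Cycs window, 3 times in that of Sdha and once in that of Sdhd, and were not in these windows of Uqcrfs1 and Cox8b. The other windows with these letters, not shown, were those of Atp5c1, Atp5g2, Atp5h, Atp5k, Atp5l and Cox6a1. None of these other genes passed the test at 96 and 192 h described below. Cyc1, Uqcrc2, Uqcrq, Sdhc, Atp5a1 and Atp5mpl, which passed it, had no matched window and were not searched. A match is a description of letters and says nothing of binding, and the motifs were chosen with the array values known.

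Intensities were scaled by the authors so that every array has the same trimmed mean. Over the 14 arrays the tested genes had medians of 188 to 208, and 88.4% to 93.8% of them were at or above 50. All differences were taken as log2 of the intensity plus 16 and tested with limma, with Benjamini-Hochberg adjustment over all 8682 genes. A gene is called at an adjusted p under 0.05, and errors are standard errors (SE).

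At the start, before hormones, the 2 lines were close but not equal. The 41 tested genes had a median log2 difference, SETD5 minus empty virus, of 0.23 at 0 h, where the median of all tested genes was 0.04. Only Cox7c was below 0 there, at -0.04, and Atp5e was highest at 0.40. At 12 and 24 h the medians over the genes were -0.01 and 0.02, with 23 and 19 of the 41 genes below 0. Over the 3 early hours (0, 12 and 24 h) no gene of the complexes was called, with a median of 0.06. At the same threshold 2 of the 8682 genes were called higher (0.023%) and 0 lower (0.0%), and at an unadjusted p under 0.05 these were 364 and 176.

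At 12 h the 41 genes had a median log2 change from 0 h of 0.10 in SETD5 cells and 0.33 in empty virus cells. Cycs, which encodes the soluble electron carrier cytochrome c, had the highest change of the set at 12 h from its own 0 h array, 1.25 on the log2 scale in SETD5 cells and 1.26 in empty virus cells. The ATP synthase c subunit, which forms the membrane rotor, is encoded by Atp5g1, Atp5g2 and Atp5g3, whose mature proteins are the same. Atp5g1 stood at 718 at 0 h and 1462 at 12 h in SETD5 cells, and at 589 and 1362 in empty virus cells. Atp5g2 had 1494 at 0 h and 926 at 12 h in SETD5 cells and 1347 and 1017 in empty virus cells. By 24 h Atp5g2 was back at 1721 in SETD5 cells and 1746 in empty virus cells. Cox7a2l, a protein that links complexes III and IV in the mouse, also stood below its 0 h array at 12 h, with log2 changes of -0.91 in SETD5 cells and -0.46 in empty virus cells. No test was run for the single early hours.

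**Figure D1:**
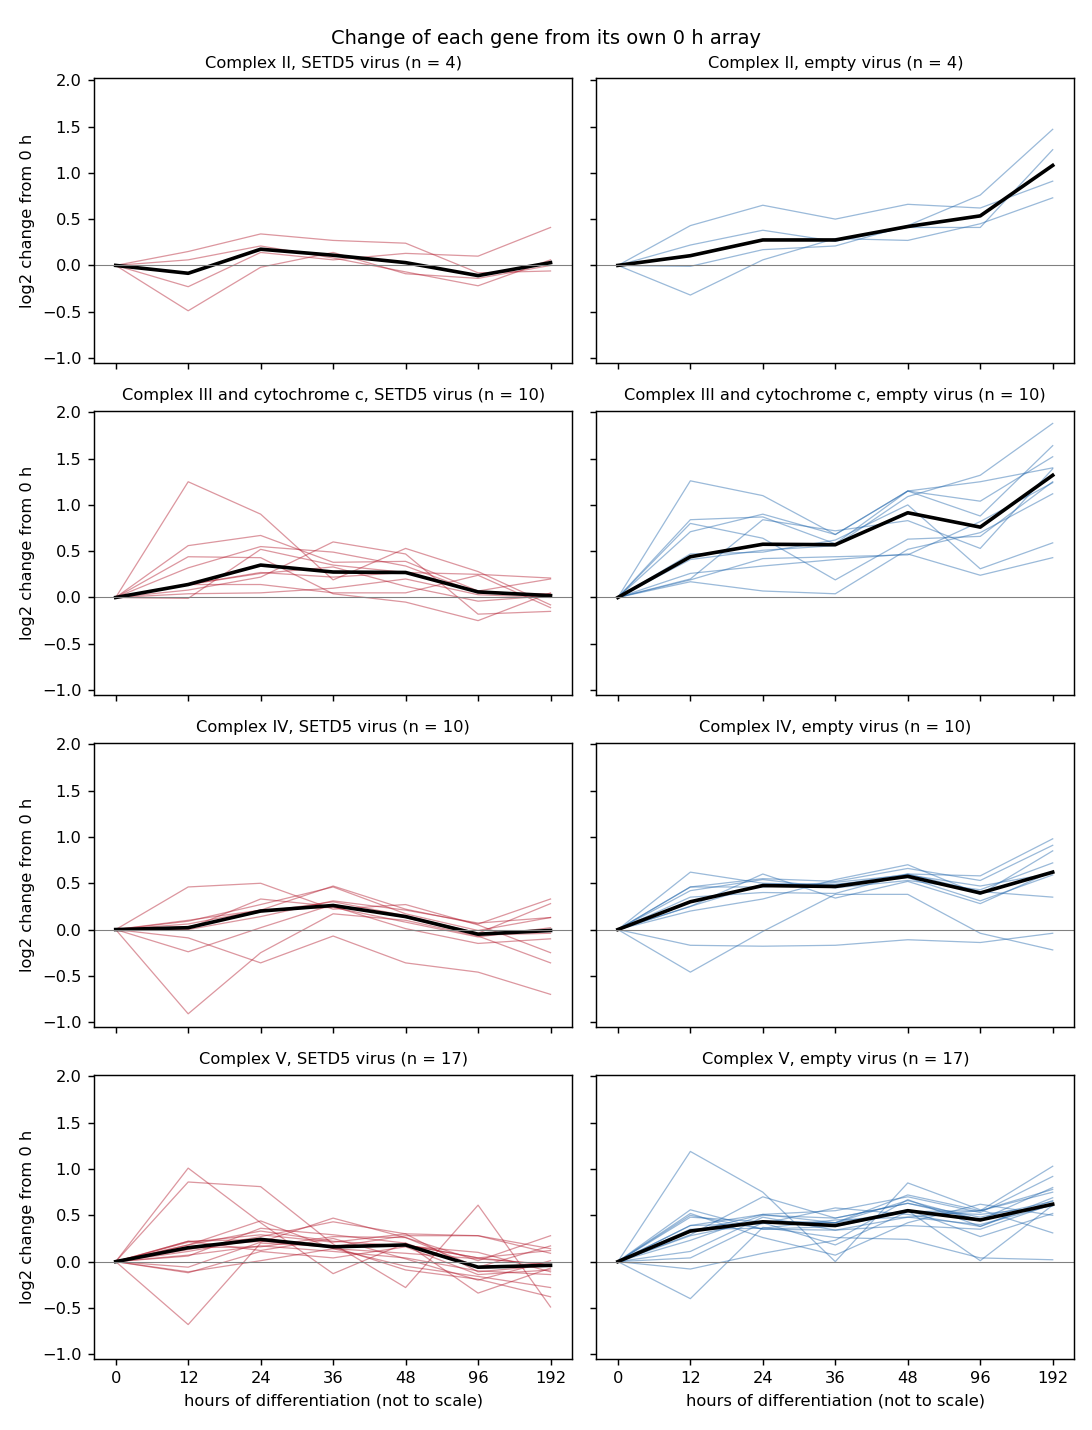
Log2 change of each tested gene from its own 0 h array (y axis) over the hours of differentiation (x axis, not to scale), with SETD5 virus on the left and empty virus on the right, 1 thin line per gene and the median as a thick black line. The medians of empty virus cells end at 1.08 for complex II and 0.62 for complexes IV and V at 192 h, while those of SETD5 cells end near 0.

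The changes from 0 h carry the offset of 0.23 between the arms at that hour. The medians were 0.22 at 24 h and 0.22 at 36 h in SETD5 cells, and 0.44 and 0.42 in empty virus cells. Later the gap was wider. In SETD5 cells the 41 genes had a median change from 0 h of 0.17 at 48 h, -0.04 at 96 h and 0.00 at 192 h on the log2 scale. In empty virus cells the medians were 0.56, 0.47 and 0.72 at these hours, with 39 of 41 genes above their 0 h array at 192 h, where 40.9% of all tested genes were above theirs. SETD5 cells had 15 genes with their highest intensity at 24 h, 15 at 36 h and 1 at 192 h, whereas in empty virus cells 29 of the 41 genes were highest at 192 h. Most of the set thus stood highest in mid-course with SETD5 and at the last hour without it.

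Tested within each arm (96 and 192 h against 0, 12 and 24 h), 0 of 41 genes were called higher and 0 lower in SETD5 cells, with a median log2 difference of -0.13. Among all genes 13 were called higher there (0.15%) and 3 lower (0.0346%), so few calls of any kind were made in that arm. In empty virus cells 4 genes were called higher and 0 lower, with a median of 0.36, where 456 of all genes were called higher (5.25%) and 286 lower (3.29%). The 4 were Uqcrfs1 (1.30 ± 0.22, adjusted p = 0.00656), Sdha (1.06 ± 0.21, adjusted p = 0.0127), Uqcrc1 (0.82 ± 0.17, adjusted p = 0.0158) and Uqcrc2 (0.83 ± 0.17, adjusted p = 0.0172), of limma's test. They are the Rieske iron-sulfur protein of complex III, the flavoprotein that oxidises succinate, and both core proteins of complex III. Without the 192 h pair none of the 41 was called in empty virus cells, and without the 0 h pair Cycs (-0.97, adjusted p = 0.0141) and Cox5a (-0.58, adjusted p = 0.0193) were called lower in SETD5 cells. In 17 of the 41 genes both late arrays of empty virus cells stood above all 3 early ones (16% of all tested genes did so), and in SETD5 cells 0 of 41 did (15.5% of all). These are counts of non-overlap between hours and carry no test.

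**Figure D2:**
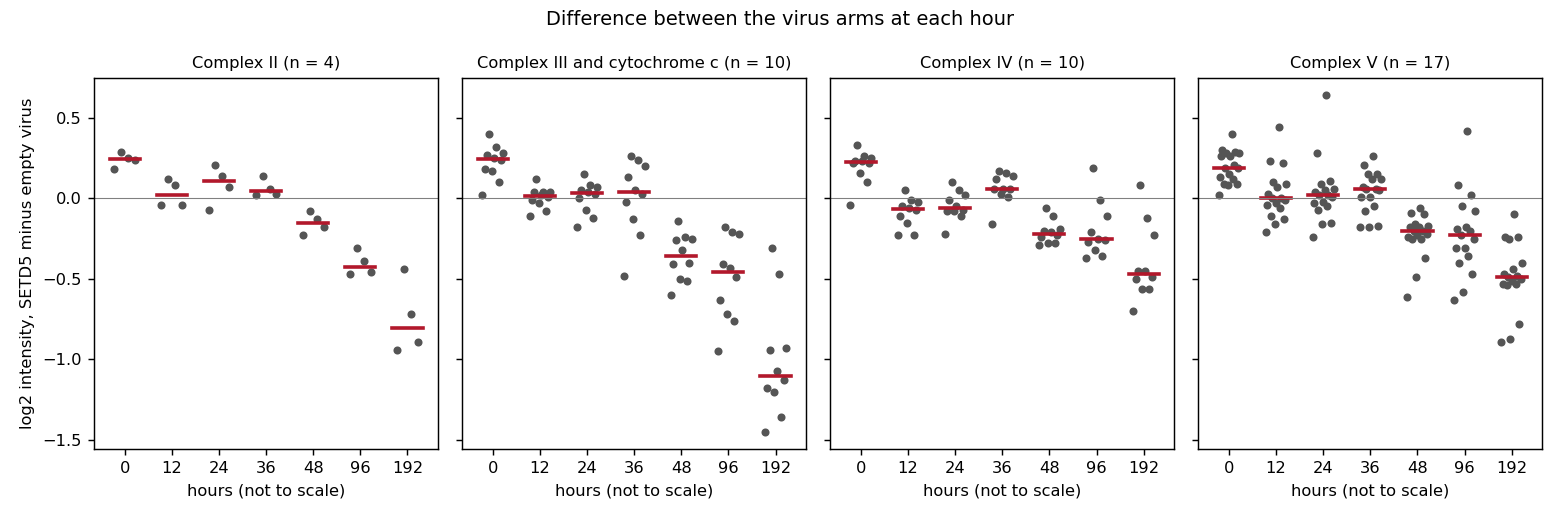
Log2 intensity difference, SETD5 minus empty virus, of each tested gene (y axis) at each hour (x axis, not to scale), 1 point per gene and a red bar at the median, by complex. All 41 genes lie below 0 at 48 h, and the median of the 9 complex III genes alone is -1.07 at 192 h.

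Between the arms, the difference grew in steps. At 36 h the median over the 41 genes was still 0.06, with Cycs lowest at -0.48. At 48 h all 41 genes were lower in SETD5 cells, with a median of -0.23, while 50.5% of all tested genes were below 0. At 96 h 37 of 41 were below 0 (median -0.31, all genes 0.04) and at 192 h 40 of 41 (median -0.51, all genes 0.12). By complex, the medians at 192 h were -0.80 for complex II, -1.07 for complex III, -0.47 for complex IV and -0.49 for complex V. Cycs was at -1.45. Whether the complexes differ from each other was not tested.

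The late hours, 36 to 192 h, ask whether the virus arms differ in the later course. Over these 4 hours 39 of the 41 genes were below 0, with a median log2 difference of -0.25 against 0.04 for all genes. The test called 4 lower, namely Cycs, Uqcrfs1, Cyc1 and Atp5o, and 0 higher, where it called 396 of 8682 genes lower (4.56%) and 645 higher (7.43%). With the arrays scaled to a common median the counts over all genes were 454 lower and 486 higher. The late difference minus the early one was called for 0 of 41 genes (median -0.32, 15 at an unadjusted p under 0.05), with 1 of all genes called lower (0.0115%) and 572 at an unadjusted p under 0.05. In 10 of the 41 genes SETD5 cells were lower at each of the 4 late hours, as in 11.5% of all tested genes. Without the 36 h pair, 23 of the 41 were called lower over the late hours, and with 36 h moved to the early hours 27 were. The shares of all genes called in those fits are not given here, so these counts describe the 41 genes only. Without any other single hour, or with no filter, 1 was called, and with each hour left out that was Cycs.

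At 96 and 192 h, the hours with insulin alone, 23 of 41 genes were called lower and 0 higher, in a fit that gave 994 of all genes as lower (11.4%) and 1373 as higher (15.8%). With a common median the counts over all genes were 1146 lower and 1019 higher. The 23 were 4 of 4 genes of complex II, 7 of 9 of complex III, Cycs, 4 of 10 of complex IV and 7 of 17 of complex V. The median log2 difference was -0.38, against 0.08 for all genes. In 37 of 41 genes SETD5 cells were lower at both hours (26.8% of all tested genes were), the others being Cox7a2l, Atp5e, Atp5l and Atp5md. The difference at 96 and 192 h minus that at the early hours was called lower for 13 of the 41 genes (6.19% of all genes were), 4 in complex II, 6 in complex III, Cycs, and Atp5o and Atp5mpl in complex V. This count was 2 without the 0 h pair, 5 without 12 h, 3 without 24 h, 21 without 96 h and 1 without 192 h. The 192 h pair carried most of these calls: without it 2 of the 41 genes were called at 96 h, Cycs (-0.95, adjusted p = 0.00561) and Uqcrfs1 (-0.76, adjusted p = 0.0388), in a fit that lets the lone 96 h pair vary like the other hours. Without the hour as a block 0 were called.

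**Figure D3:**
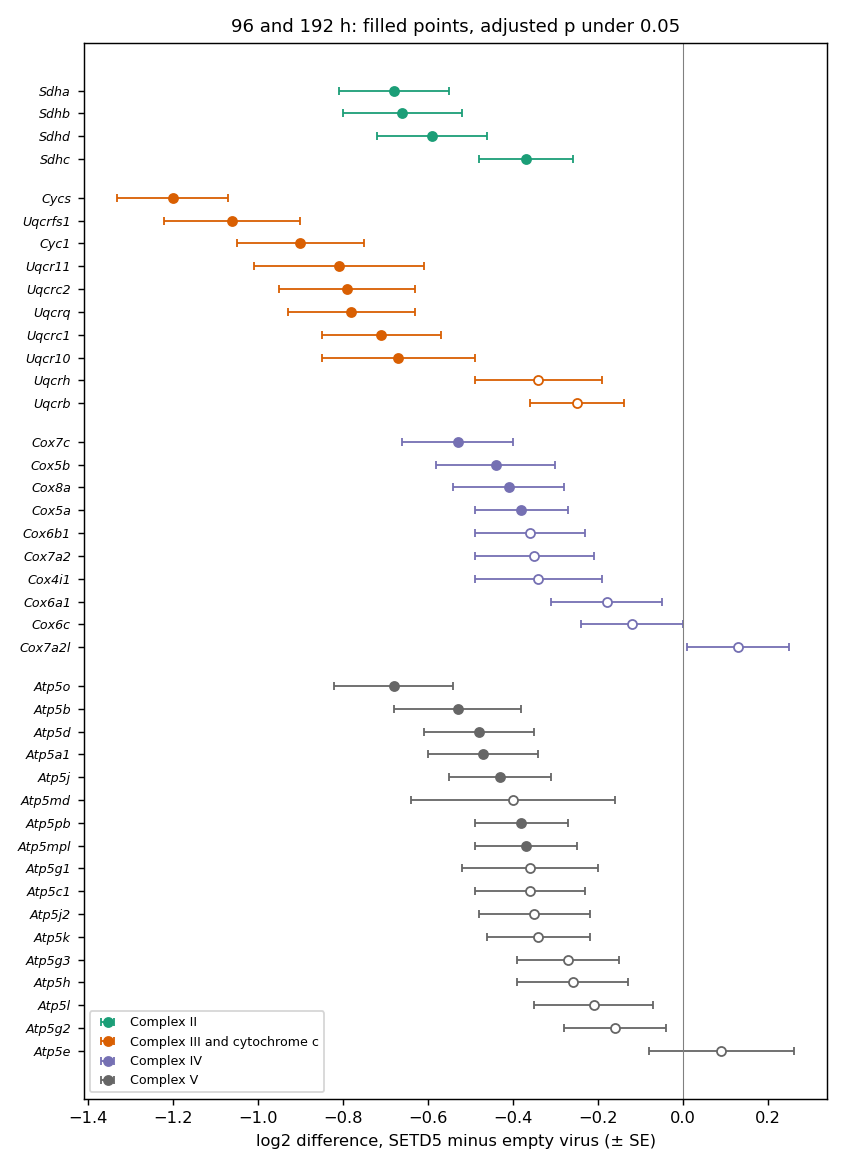
Log2 difference, SETD5 minus empty virus, at 96 and 192 h (x axis) of the 41 tested genes (y axis), grouped by complex, with bars of 1 SE from limma and filled points for an adjusted p under 0.05. Cycs lies lowest at -1.20 and Cox7a2l highest at 0.13.

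Among the 41 tested genes, Cycs had the lowest log2 difference both over the late hours and at 96 and 192 h. Cycs (Entrez gene 13063) had intensities of 1885, 4507, 3528, 2147, 2721, 2294 and 1783 at 0, 12, 24, 36, 48, 96 and 192 h in SETD5 cells, and of 1857, 4457, 3988, 2995, 4145, 4439.9 and 4915 in empty virus cells. The arms were alike at 0 and 12 h, both stood lower at 36 h, and only empty virus cells were back near their 12 h level at 96 h. The log2 difference was -0.87 ± 0.14 over the late hours (adjusted p = 0.00882, lower at 4 of 4 hours) and -1.20 ± 0.13 at 96 and 192 h (adjusted p = 0.000321). Its call at 96 and 192 h was made under every alternative tried except the fit without the hour as a block (adjusted p = 0.321). Both of its other tested probe sets were called too, at -1.29 (adjusted p = 0.000475) and -1.39 (adjusted p = 0.000214) when every probe set was tested on its own.

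In complex III the catalytic subunits stood with Cycs. Uqcrfs1 (Entrez gene 66694), the Rieske protein that takes electrons from ubiquinol, had 802, 884, 972, 939, 969.8, 959 and 927 at the 7 hours in SETD5 cells and 641, 858, 922, 950.3, 1379.5, 1629 and 2408 in empty virus cells. It stayed within a narrow band in SETD5 cells while each array of empty virus cells was above the one before, and the arms crossed between 24 and 36 h. The log2 difference was -0.66 ± 0.17 over the late hours (adjusted p = 0.0407) and -1.06 ± 0.16 at 96 and 192 h (adjusted p = 0.00177, a 2.08-fold difference). Cyc1, cytochrome c1, which hands the electrons to cytochrome c, had 951, 1411, 1517, 1239, 1251, 998 and 1092 in SETD5 cells and 796, 1442, 1469.7, 1199, 1783, 1657 and 2307 in empty virus cells. Both arms were close to each other at 24 h and lower at 36 h, and SETD5 cells were the lower arm from 48 h on. Its difference was -0.56 ± 0.15 over the late hours (adjusted p = 0.0427) and -0.90 ± 0.15 at 96 and 192 h (adjusted p = 0.00258).

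The core proteins, which hold the complex together, followed. Uqcrc2 had 1188, 1310.3, 1306, 1228, 1226, 1409.5 and 1102 in SETD5 cells and 1054, 1207, 1417, 1439, 1457, 1876 and 2509 in empty virus cells. Uqcrc1 had 523, 537, 541, 561, 604, 534 and 522 in SETD5 cells and 460.0, 521, 485, 472, 669, 755 and 1017 in empty virus cells. In SETD5 cells neither had its highest value at 192 h, whereas both did in empty virus cells. At 96 and 192 h the log2 differences were -0.79 ± 0.16 for Uqcrc2 (adjusted p = 0.00679) and -0.71 ± 0.14 for Uqcrc1 (adjusted p = 0.00522), and neither was called over all 4 late hours (adjusted p = 0.0508 and 0.183).

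The small subunits of complex III divided. Uqcr11, Uqcrq and Uqcr10 were called lower at 96 and 192 h, at -0.81 ± 0.20 (adjusted p = 0.0136), -0.78 ± 0.15 (adjusted p = 0.00482) and -0.67 ± 0.18 (adjusted p = 0.0231). At 192 h Uqcr11 had 1111 in SETD5 cells and 2569.7 in empty virus cells, Uqcrq 1036 in SETD5 cells and 1986 in empty virus cells, and Uqcr10 762 in SETD5 cells and 1687 in empty virus cells. None of these 3 was called without the 192 h pair, and the difference of Uqcr10 at 96 h was -0.21. Uqcrh, the hinge protein between cytochrome c1 and cytochrome c, had -0.34 ± 0.15 (adjusted p = 0.115) and Uqcrb -0.25 ± 0.11 (adjusted p = 0.134), with 192 h intensities of 2013 and 4475 in SETD5 cells and 2788 and 5554 in empty virus cells. Of the 2 probe sets of Uqcrb, the dimmer one was called when tested on its own (-0.47, adjusted p = 0.0381).

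All subunits of complex II were called lower at 96 and 192 h. Sdha, the flavoprotein, had 727, 617, 802, 762, 795, 783 and 970.2 in SETD5 cells and 641, 635, 724, 745, 871, 1093 and 1806 in empty virus cells. Sdhb, the iron-sulfur subunit, had 1136, 1187, 1313, 1199.6, 1085, 974 and 1187 in SETD5 cells and 956, 1119, 1251, 1148, 1279, 1278 and 2296 in empty virus cells. For both, SETD5 cells were at or above empty virus cells at 0, 24 and 36 h and below them from 48 h on. Sdhc and Sdhd, which anchor the enzyme in the membrane and hold its heme, had 355 and 601 at 192 h in SETD5 cells and 489 and 1002 in empty virus cells. At 96 and 192 h the log2 differences were -0.68 ± 0.13 for Sdha (adjusted p = 0.00451), -0.66 ± 0.14 for Sdhb (0.00861), -0.59 ± 0.13 for Sdhd (0.00752) and -0.37 ± 0.11 for Sdhc (0.0319). None was called over all 4 late hours, where they lay between -0.38 and -0.17, nor without the 192 h pair. Sdhc was also not called with no filter on low genes or without the 0, 12 or 24 h pair. The second tested probe sets of Sdhc (-0.35, adjusted p = 0.128) and Sdhd (-0.39, adjusted p = 0.204) were not called on their own. That of Sdha was (-0.74, adjusted p = 0.0147).

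**Figure D4:**
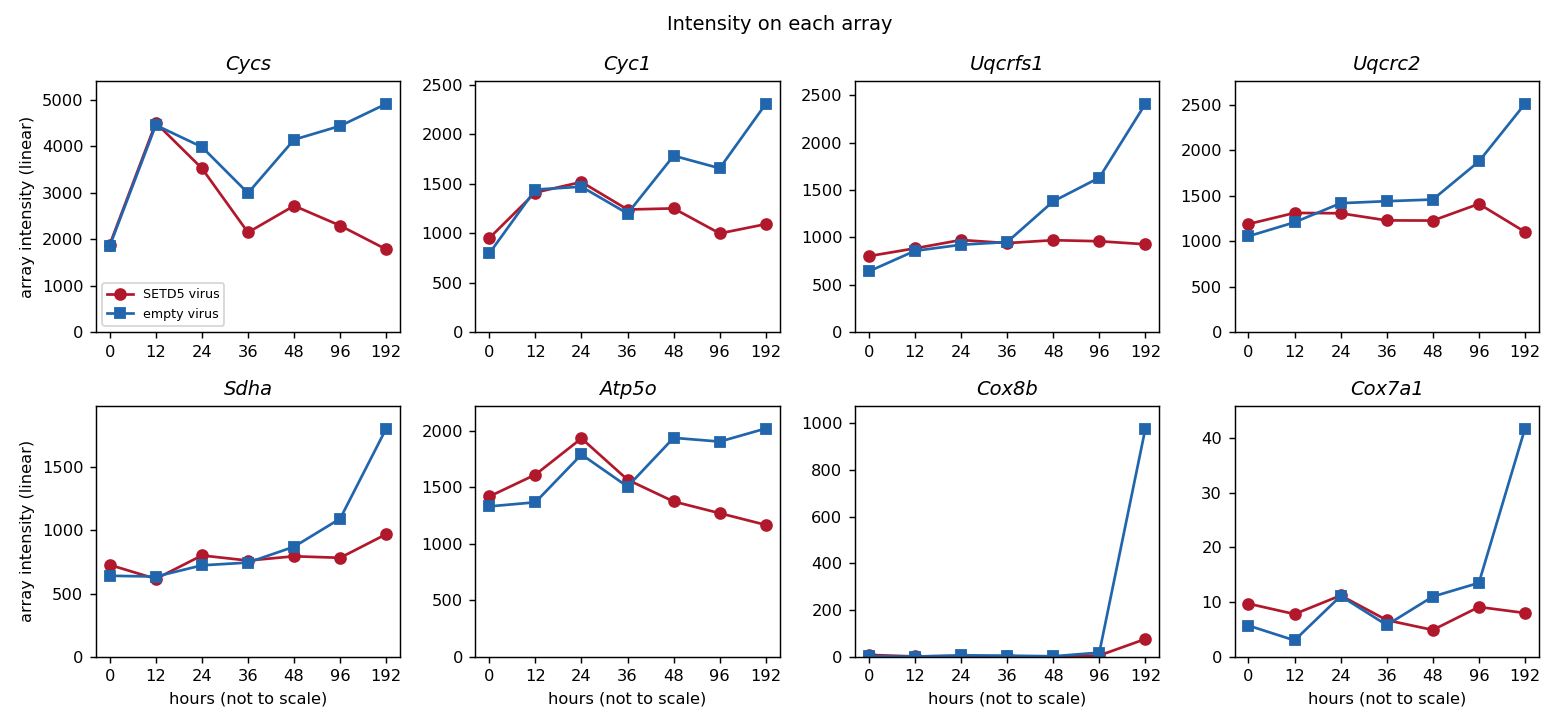
Array intensity on a linear scale (y axis, from 0) at each hour (x axis, not to scale) of 8 genes, with SETD5 virus as red circles and empty virus as blue squares, 1 array per point. Cycs ends at 1783 in SETD5 cells and 4915 in empty virus cells, and Cox8b at 76.0 and 977.

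In complex IV the differences were smaller. The 10 tested subunits lay between -0.53 and 0.13 at 96 and 192 h, with a median of -0.36. Cox5b, a zinc-binding subunit, Cox5a, which faces the matrix, Cox8a and Cox7c were called lower, at -0.44 ± 0.14 (adjusted p = 0.0423), -0.38 ± 0.11 (0.0305), -0.41 ± 0.13 (0.0378) and -0.53 ± 0.13 (0.0163). None of these 4 was called without the 192 h pair. The call of Cox5a was also lost without the 0 or 24 h pair, that of Cox5b without 12 or 24 h and that of Cox8a without 12, 24 or 96 h. The other tested probe sets of Cox5a and Cox5b were not called on their own (adjusted p = 0.0577 to 0.0747). None of the 10 was called for the difference between 96 and 192 h and the early hours (lowest adjusted p = 0.0829). The Cox7c probe set was dim, with 67.7, 62.9, 49.0, 63.7, 49.3, 45 and 35.5 in SETD5 cells and 70.0, 60.2, 59.7, 60.5, 63.9, 62.2 and 67.8 in empty virus cells, so its value stands on intensities near the filter of 50.

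The widely made members of the subunits with tissue forms were present throughout. Cox4i1, the regulatory subunit, had 2988, 2525, 3024, 3604, 3272, 2861 and 2907 in SETD5 cells and 2371, 2729.7, 2977, 3461, 3868, 3099.6 and 4281 in empty virus cells (-0.34 ± 0.15 at 96 and 192 h, adjusted p = 0.121). Cox6b1, which bridges the enzyme dimer, had 3119, 3353, 3611, 3675, 3304, 2950.2 and 3167 in SETD5 cells and 2629, 3517, 3822, 3602, 3803, 3555 and 4346 in empty virus cells (-0.36 ± 0.13, adjusted p = 0.0555). Cox7a2 had 3166, 3198, 3982, 3769, 3188, 2842 and 2953 in SETD5 cells and 2703, 3227, 4113, 3429, 3877, 3283 and 4182 in empty virus cells (-0.35 ± 0.14, adjusted p = 0.0804). These 3 were lower in SETD5 cells at 48, 96 and 192 h, and none was called. The second probe set of Cox7a2 was called lower when tested on its own (-0.47, adjusted p = 0.0491).

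Cox8a had 2099, 2143, 2404, 2588, 2333, 2039 and 2545 in SETD5 cells and 1755, 2239, 2316, 2303, 2668, 2636 and 3475 in empty virus cells. Cox6a1 had 4120.0, 4303, 4767, 5698, 4801, 4282 and 5166 in SETD5 cells and 3679, 5066, 5055, 5240.3, 5537, 5099 and 5605 in empty virus cells (-0.18 ± 0.13 at 96 and 192 h, adjusted p = 0.327). The 2 probe sets of Cox6a1 disagreed, since the dimmer one was called lower when tested on its own (-0.69, adjusted p = 0.00551). Cox7a2l, a relative of the Cox7a subunits that joins complex IV to complex III, lay above 0 at both 96 and 192 h. It had 1750.1, 925, 1474, 1973, 1883, 1663 and 1361 in SETD5 cells and 1504, 1089.5, 1479.5, 1956, 1969, 1458 and 1289.8 in empty virus cells, with a difference of 0.13 ± 0.12 at 96 and 192 h (adjusted p = 0.469). Cox6c, a subunit with a single form, had -0.12 ± 0.12 (adjusted p = 0.512), and its dimmer probe set had 0.30 (adjusted p = 0.175) when tested on its own.

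Cox8b, the heart and muscle form of Cox8a, appeared in the last sample. Cox8b (Entrez gene 12869) had 8.0, 1.5, 3.5, 1.4, 0.5, 5.6 and 76.0 at the 7 hours in SETD5 cells and 2.4, 0.8, 6.1, 4.8, 2.2, 17.8 and 977 in empty virus cells. Before 192 h both arms were at 17.8 or less, and at 192 h SETD5 cells had 7.78% of the empty virus intensity, a log2 difference of -3.43. As only 2 arrays reached 50, Cox8b did not enter the test. With no filter its difference at 96 and 192 h was -2.04 (adjusted p = 0.0369), a value that rests on 1 pair of arrays. Cox7a1, the matching form of Cox7a2, had 9.7, 7.8, 11.2, 6.7, 4.9, 9.1 and 8.0 in SETD5 cells and 5.7, 3.0, 11.1, 5.8, 11, 13.5 and 41.7 in empty virus cells (with no filter -0.75, adjusted p = 0.0726). It was also highest at 192 h with the empty virus, below the filter of 50.

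The remaining tissue forms stayed at 55 or less on all arrays. Cox6a2, the heart and muscle form of Cox6a1, had 29.4, 21.9, 12.1, 18, 12, 16.6 and 50.4 in SETD5 cells and 38.0, 12.1, 14.5, 25.9, 14.2, 16.7 and 33.2 in empty virus cells. Cox8c, the testis form, had 26.2 to 55 in SETD5 cells and 28.7 to 48.4 in empty virus cells. Cox4i2, a lung form tied to low oxygen, had 0.8 to 14.8 in SETD5 cells and 1.5 to 9.9 in empty virus cells, and the testis form Cox6b2 had 0.8 to 9.8 in SETD5 cells and 0.6 to 9.8 in empty virus cells. Cox7b2 stayed between 0.4 and 5.8 in SETD5 cells and 0.3 and 3.6 in empty virus cells. The 10 markers of striated muscle that were checked were all under 50 on every array. Of 8 markers of brown or beige fat cells 1 passed the filter, and Ucp1, their defining uncoupling protein, had at most 4.9.

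The 17 tested genes of complex V lay between -0.68 and 0.09 at 96 and 192 h, with a median of -0.36 and 7 called lower. Atp5o, the stalk protein OSCP that ties the catalytic head to the membrane part, had 1418, 1611, 1931, 1566, 1373, 1269.6 and 1166 in SETD5 cells and 1330.0, 1366, 1789, 1505, 1936, 1903 and 2019 in empty virus cells. SETD5 cells were the higher arm up to 36 h and the lower arm from 48 h. The log2 difference was -0.45 ± 0.12 over the late hours (adjusted p = 0.0451) and -0.68 ± 0.14 at 96 and 192 h (adjusted p = 0.00631).

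In the catalytic head, Atp5b (beta) had -0.53 ± 0.15 at 96 and 192 h (adjusted p = 0.028), Atp5a1 (alpha) -0.47 ± 0.13 (0.0243) and Atp5d (delta) -0.48 ± 0.13 (0.0219). The call of Atp5d was lost without the 96 h pair as well as without the 192 h pair. Atp5b stood at 2271 in SETD5 cells and 4157 in empty virus cells at 192 h, but at 2592 and 2974 at 96 h. The second tested probe set of Atp5a1 was not called on its own (-0.37, adjusted p = 0.0638), while that of Atp5d was (-0.56, adjusted p = 0.0171). Atp5c1 (gamma) had -0.36 ± 0.13 (adjusted p = 0.0579). Atp5e (epsilon) had 1494, 1379.7, 1507, 1650.1, 1593, 1528 and 1459 in SETD5 cells and 1129, 1379, 1535, 1513, 1664, 1138 and 1732 in empty virus cells. Its difference of 0.09 ± 0.17 (adjusted p = 0.734) turned with the hour, 0.42 at 96 h and -0.24 at 192 h.

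In the stalk and membrane part, Atp5j (F6), Atp5pb (b) and Atp5mpl (a small proteolipid) were called lower at -0.43 ± 0.12, -0.38 ± 0.11 and -0.37 ± 0.12 (adjusted p = 0.0269, 0.0321 and 0.0429). The calls of Atp5pb and Atp5mpl were also lost without the 0, 12 or 24 h pair. The 3 genes of the rotor's c subunit lay at -0.36 for Atp5g1, -0.16 for Atp5g2 and -0.27 for Atp5g3, none called (adjusted p = 0.122, 0.341 and 0.111). Atp5md, a small accessory subunit, had the largest SE of the complex V genes at 96 and 192 h. It stood at 1094, 2000.0, 1925, 1252, 899.5, 1676 and 775 in SETD5 cells and 1024, 1471, 1232, 1079, 1380.0, 1581 and 1452 in empty virus cells. SETD5 cells were the higher arm at 0, 12, 24, 36 and 96 h and the lower one at 48 and 192 h, and the difference at 96 and 192 h was -0.40 ± 0.24 (adjusted p = 0.239). Atp5j2 (f), Atp5k (e), Atp5h (d) and Atp5l (g), also of the stalk and membrane part, lay at -0.35, -0.34, -0.26 and -0.21 and were not called (adjusted p = 0.066, 0.0617, 0.167 and 0.276). A second probe set of Atp5j2 was called lower when tested on its own (-0.53, adjusted p = 0.0165).

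The members had 48 further probe sets, of which 32 passed the filter. At 96 and 192 h 28 of these 32 were below 0, and 13 were called lower and 0 higher. These calls come from a fit of 14412 probe sets, each on its own. The share of all probe sets called in it is not given here. Of the 23 called genes, 13 had such a second probe set, and for 8 of them at least 1 was called lower too.

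Genes around the complexes were counted from lists chosen by function, beside 11.4% of all tested genes called lower and 15.8% called higher at 96 and 192 h. Of 38 tested assembly factors of complexes II to V, 14 were called lower and 0 higher at 96 and 192 h (median -0.27). Among them were Atpaf2, which helps build the head of complex V (-1.06 ± 0.14, adjusted p = 0.000801), Cox15, needed for the heme a of complex IV (-0.86 ± 0.23, adjusted p = 0.0189), and Tmem70, which helps assemble complex V (-0.99 ± 0.16, adjusted p = 0.00235). Of 10 tested genes of ubiquinone synthesis 6 were called lower and 0 higher (median -0.52). Coq5 and Coq3, methyltransferases of the ring, had -1.41 ± 0.15 (adjusted p = 0.000289) and -1.23 ± 0.13 (adjusted p = 0.00026). Of 25 tested genes of import and the outer membrane 13 were called lower and 0 higher (median -0.41). Of 4 uncoupling proteins on the array 1 was tested, and it was not called. Slc25a5, an ADP and ATP carrier, was 1 of 3 tested carriers and the called one (-0.72 ± 0.11, adjusted p = 0.00197), while Slc25a4, another such carrier, had 0.09 ± 0.12 (adjusted p = 0.614).

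Among 13 tested regulators of mitochondrial genes, 5 were called lower and 1 higher at 96 and 192 h (11.4% and 15.8% of all genes). Ppargc1b, a coactivator, had 92.2 at 192 h in SETD5 cells and 402 in empty virus cells (-1.68 ± 0.18, adjusted p = 0.000245). Nrip1, a corepressor of energy genes, had 369 in SETD5 cells and 1798 in empty virus cells at 192 h (-1.70 ± 0.20, adjusted p = 0.000411). Esrra, an ERR receptor, Tfb1m and Polrmt were also called lower, at -0.61 ± 0.18, -0.57 ± 0.13 and -0.54 ± 0.12 (adjusted p = 0.0289, 0.00932 and 0.00948). Gabpa, an ETS factor, was the called one that was higher (0.46 ± 0.13, adjusted p = 0.0238). Nrf1, the factor of the letters above, had 71.7 in SETD5 cells and 38.3 in empty virus cells at 192 h, near the filter of 50. Its difference at 96 and 192 h was 0.38 ± 0.15 (adjusted p = 0.0828). Over the late hours it was called higher (0.39 ± 0.10, adjusted p = 0.0421), as were 7.43% of all genes. Ppargc1a had 0.19 ± 0.15 at 96 and 192 h (adjusted p = 0.375).

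Fat cell markers were also lower in SETD5 cells at 96 and 192 h, but over time they rose in both arms. Of 9 on the array 8 were tested, and all 8 were called lower at 96 and 192 h (median -1.74, 11.4% of all genes), and 6 over the late hours (4.56% of all genes). Their summed intensity ran from 1530 to 19500 in SETD5 cells and from 1490 to 33900 in empty virus cells, and none was at 0 on all arrays. Lep, the hormone leptin, was the untested one, at 0.3 to 28.1. Over time, from the early hours to 96 and 192 h, 5 of the 8 were called higher in SETD5 cells (0.15% of all genes) and 8 of 8 in empty virus cells (5.25% of all genes). Their median log2 difference over time was 2.84 in SETD5 cells and 5.07 in empty virus cells. For the 41 respiratory genes these were -0.13, with 0 called, and 0.36, with 4 called higher. Between the arms at 96 and 192 h the 8 markers ran from -0.45 ± 0.15 for Lpl to -3.11 ± 0.27 for Cidec. Of 6 tested markers of preadipocytes and fibroblasts 3 were called higher and 0 lower at 96 and 192 h (median 0.42), beside 15.8% of all genes called higher (1373 genes, or 1019 with a common median). No macrophage or endothelial marker of the 10 checked passed the filter, with Cd14 highest at 55.6. The part of the fat cell markers in the differences of the respiratory genes was not tested.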

How the data were processed

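Messenger RNA was measured on 14 Affymetrix mouse arrays, 1 for each virus and hour. The deposited intensities are linear values per probe set, made by the authors with GeneChip software as an average difference and scaled to a common trimmed mean of 100 (2% trimmed at each end). So only levels relative to the array's bulk can be compared. Of 45100 probe sets, 34944 had 1 symbol, 932 several and 9160 none, 64 being controls. Precision is limited by the number of arrays. Genes that reached an intensity of 50 on 3 or more arrays were tested as log2(intensity + 16) with limma 3.58.1 in R 4.3.3. Virus differences came from fits with the hour as a block, which takes up what arrays of 1 hour share (5 residual degrees of freedom with 2 windows, 4 with 3), and time differences from a fit with 8. Replicates are hours, so p-values measure the spread between hours. The scripts were tested on simulated data. Named genes were those called over the late hours or at 96 and 192 h (the 12 largest by late difference), the largest and smallest late difference of each complex, the tissue forms, and up to 3 genes of each list, while other genes were named after their values were seen. Members, lists and windows were chosen with earlier results of these data known. Alternatives were another normalization, offset, filter, variance prior or window, and every probe set on its own. Others were a window with 36 h among the early hours, no block, and leaving out each hour. Members by updated symbol were the same 48 genes.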

Additional observations from a re-analysis of the deposited data

Results flagged for a closer look

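Of 28 genes of the complexes whose 7 hourly differences were examined, 3 had 1 hour far from the others, each time 192 h. Chance marks about 1 in 20 such groups. That rate does not hold for genes picked by their late difference, which includes 192 h, as Uqcrc2 and Uqcr10 were. Nor does it hold where differences follow the course, and 192 h was its last hour for all 3 genes, Cox8b included. The log2 difference, SETD5 minus empty virus, was -1.18 for Uqcrc2 at 192 h, with the nearest other hour at -0.41. Uqcr10 had -1.13 at 192 h, with the nearest other hour at -0.32. Cox8b had -3.43 at 192 h, with the nearest other hour at -0.65.

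The difference between the arms at 96 and 192 h, minus that at 0 to 24 h, passed limma's test for 13 of the 41 genes. All 13 were called lower, as were 6.19% of all tested genes. Fewer of the 41 were called without the 0, 12 or 24 h pair. In complex II the difference was -0.77 for Sdha (adjusted p = 0.0186), -0.80 for Sdhb (0.026), -0.58 for Sdhc (0.0321) and -0.64 for Sdhd (0.0338). In complex III it was -1.20 for Uqcrfs1 (adjusted p = 0.00868), -0.98 for Cyc1 (0.014), -0.96 for Uqcr11 (0.0389), -0.87 for Uqcrq (0.0211), -0.85 for Uqcrc2 (0.0319) and -0.84 for Uqcrc1 (0.0189). Cycs had -1.16 (adjusted p = 0.00439), and in complex V Atp5o had -0.83 (0.0196) and Atp5mpl -0.62 (0.0306).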

How the results depend on the processing

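Over the late hours 4 of the 41 genes were called lower, against 2 with quantile normalization, 2 with an offset of 4, 7 with an offset of 64, 1 with no filter, 7 with trended and robust variances and 27 with 36 h among the early hours; leaving out 1 hour gave 1 to 23. The late minus early difference gave 0, against 7 with 36 h among the early hours, and 0 to 1 with an hour left out. At 96 and 192 h 23 were called lower, against 13 with no filter and 2 to 26 with an hour left out (2 without 192 h, 26 without 96 h). That difference minus the early one gave 13, against 2 with no filter and 1 to 21 with an hour left out (1, Cycs, without 192 h and 21 without 96 h), and its median of -0.47 ranged from -0.63 to -0.32. With no replicate block, that is with no term pairing the arrays of an hour, 0 were called over the late hours, 0 at 96 and 192 h and 0 for that difference minus the early one. In empty virus cells 4 were called higher over time, and 0 to 5 with an hour left out (0 without 192 h). In SETD5 cells 0 were called lower, and 0 to 2 with an hour left out (2 without 0 h). Atp5e turned sign without the 96 h pair, at -0.06 over the late hours and -0.24 at 192 h alone, and had 0.16 and 0.42 without the 192 h pair. The cause of these changes was not tested, and shares over all genes are not given for the alternative settings. Under the deposited scaling, quantile normalization and a common median, 39 of 41 genes lay below 0 over the late hours and at 96 and 192 h. With 1 array for each virus and hour, values for 96 h or 192 h alone rest on 1 pair of arrays that is assumed to vary like the other hours, and probe sets near an intensity of 50 are the least certain.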
